A study of Solanum lycopersicum and Solanum tuberosum and Capsicum annuum and Nicotiana tabacum with 10 samples.

Results

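The genes described here are 35 potato locus genes for which tomato leaf RNA stood apart from the leaf RNA of pepper, tobacco, N. benthamiana and petunia on potato cDNA arrays. A locus gene is a gene that carries only a locus name (LOC and a number) as its symbol in the table of the arrays' probes. Of 339 such genes, represented by 658 printed clones, 327 had a value in all 5 query species, and 12 were left out for a species with no value. All spots of a gene were averaged on each array and then over the 2 arrays of a species. A gene was taken when its tomato mean lay at least 0.6 above the highest or below the lowest of the 4 other species means, a gap of 1.52-fold. Of the 41 genes past this gap, 6 were left out because all 5 species means were above 1 or all were below -0.5 (a further clause, all means between -0.4 and 0.4, removed none). The remaining 35 genes made up 10.7% of the 327, with tomato below the others in 30 and above them in 5.

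Because the rule used the species means themselves, the distance of tomato from the other species is a description of the selected genes. Calls on that distance, given further below, are no independent test of it. The arrays held RNA from mature leaves of untreated plants, grown at 25 °C with 16 h of light a day and harvested at 4 to 6 weeks. Tomato, pepper, tobacco, N. benthamiana and petunia RNA was labelled with Cy3, potato RNA with Cy5, and each query species was hybridised against potato on 2 arrays, 10 in all. The dyes were never swapped, so a dye effect is part of every ratio to potato. It is shared by the query species. By the sample labels, the 5 replicate 1 arrays had 1 potato extract in common and the 5 replicate 2 arrays another. Separate plants are not stated, so p-values cover the spread among these samples alone, and that spread may be technical.

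Tomato and potato are both members of the genus Solanum. Pepper is their closest relative among the other species here, and the 2 Nicotiana species and petunia are more distant within the family. A cDNA array made from 1 species can be used for its relatives because coding sequences are largely conserved, but a transcript whose sequence has diverged from the spotted clone binds less well. A lower signal from another species can thus reflect less transcript or weaker binding, and these values cannot tell the 2 apart. A locus name is given by the NCBI Gene database to a predicted gene that has no symbol of its own. It says nothing of what the gene does, and since no description of these genes was at hand, none is given a role here.

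The values are log2 ratios of the 2 channels, and which way round they were taken is not stated in any source used here. Positive values were likely brighter in potato, since the array titles put potato first. The differences of the other query species from tomato, in which potato and the dyes cancel, were also skewed towards positive values in 8 of 8 comparisons. That skew was as weak as 0.031 for pepper in replicate 1, and 4 comparisons at a time rest on 1 tomato array. Using it assumes that the other species bind the potato clones less well than tomato, which was not tested. Against potato, each of the 4 others had more features called negative than positive in the fits below, as N. benthamiana with 31.7% and 28.7%. The direction is therefore not settled. A tomato mean below the others would then likely be a stronger tomato signal relative to potato, and a value of 0 an equal signal of both species after normalization. Medians of the arrays lay between -0.084 and -0.027, and 9279 to 10439 of the 15360 clone positions had a value on an array. These positions outnumber the clones that the paper reports, so this is not its share of detected probes. The lowest correlation between any 2 arrays over clones was 0.650.

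In the 30 genes with tomato below, the median tomato mean was -0.033, against a median of 1.15 for the mean of the 4 others. The gap to the nearest species had a median of 0.838, with extremes of 0.605 and 1.97, and exceeded 1 in 11 genes. Tomato lay nearer to the potato level than every other species in 20 of the 30, and in 13 it was within 0.4 of potato while all 4 others were beyond 0.4 on 1 side. The 4 other means were all above 0 in 24 genes, above 1 in 11 of these, all below 0 in 3 and of both signs in 3. Counts of this kind describe genes chosen on the same species means, after genes with all means high or all low were left out. Shares over all locus genes are not given beside them, so the counts are not read as a trait of these genes. In the 5 genes with tomato above, the median tomato mean was 1.14, against -0.15 for the 4 others, and the gap had a median of 0.75 with a largest value of 1.32. Across the 292 locus genes that were not taken, the corresponding medians were 0.13 in tomato and 0.23 in the 4 others.

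**Figure D1:**
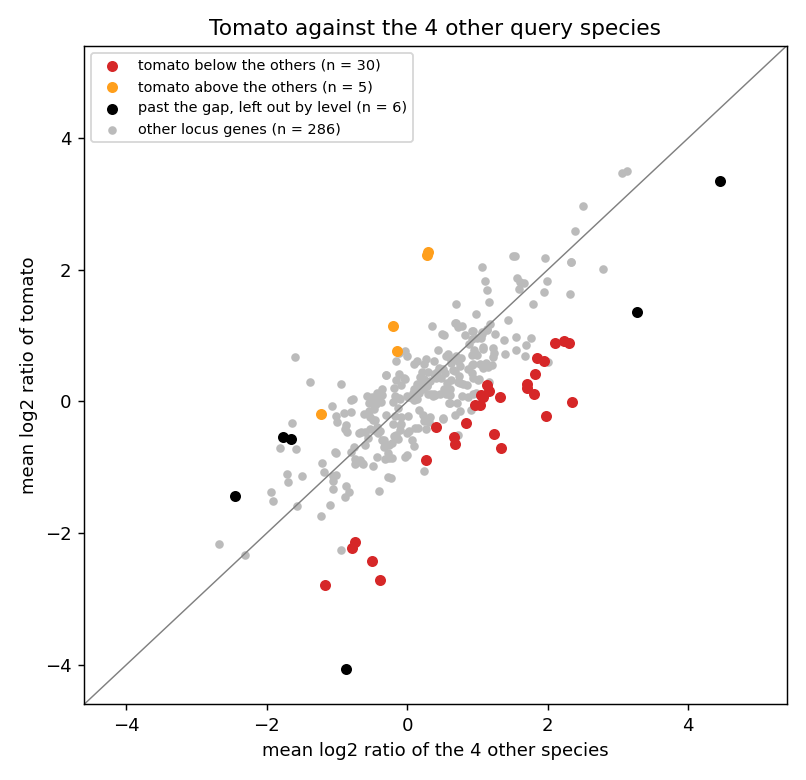
Mean log2 ratio of tomato (vertical axis) against the mean log2 ratio of the 4 other query species (horizontal axis) for the 327 locus genes, with the line of equality. The 30 genes with tomato below lie under the line, 24 of them with all 4 other species means above 0 and 14 with tomato within 0.4 of potato, and the 5 genes with tomato above lie over it. The 6 genes past the gap that were left out by level are black.

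The gene with the widest gap of the 35 was LOC102602150, with -2.69 and -2.73 on the replicate 1 and replicate 2 tomato arrays. In the other species it had -0.22 and -0.24 in pepper, -0.61 and -0.87 in petunia, -0.61 and -0.87 in tobacco, and 0.10 and 0.25 in N. benthamiana. The 2 tomato arrays were thus nearly the same and lay far under all 8 others. The tomato mean of -2.71 ± 0.03 (SD, n = 2) was 1.97 under that of petunia, a 3.92-fold difference. It is 1 of 5 genes in which tomato itself was below -1.

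LOC102588954 had -2.001 and -2.84 in tomato. The other arrays gave -0.21 and -1.66 in pepper, 0.20 and -0.42 in petunia, 0.51 and -0.25 in tobacco, and -0.68 and -1.49 in N. benthamiana. In all 5 species the replicate 2 array was the lower one, and tomato was lowest within each replicate although the replicates differ by up to 1.45 (pepper). The gap of the tomato mean (-2.42 ± 0.59, SD, n = 2) to N. benthamiana was -1.34. The gap to the nearest species was -1.32 on replicate 1 arrays alone (N. benthamiana) and -1.18 on replicate 2 arrays alone (pepper).

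LOC102594153 gave -2.24 and -2.23 in tomato, against -0.40 and -0.46 in pepper, -1.16 and -0.92 in petunia, -0.63 and -0.57 in tobacco, and -0.96 and -1.16 in N. benthamiana. The ratios of all 4 other species were negative too, and the tomato mean ratio was 1.17 lower than the nearest of them, that of N. benthamiana. LOC102577532 was also negative in every species, with a tomato mean of -2.14 ± 0.09 (SD, n = 2) and pepper nearest at a gap of -1.06. Among its 3 clones, 1 had no value in tobacco, N. benthamiana or petunia. The 2 clones valued in all 5 species had gaps of -0.99 and -0.53. LOC102585483 had the lowest tomato mean of the 35, -2.79 ± 0.01 (SD, n = 2), with tobacco nearest at -1.03. It had no value on the replicate 2 pepper array. In these 3 genes every one of the 5 query species was negative, so the ratio of tomato was the most extreme in a direction that all species shared.

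The genes with a tomato mean between -1 and -0.4 (these level classes were drawn after the values were seen) were 5 as well, and in 4 of them the other species were all positive. LOC102591978 had -0.55 and -0.88 in tomato, against 1.61 and 1.47 in pepper, 1.11 and 0.91 in petunia, 1.59 and 1.32 in tobacco, and 1.65 and 1.06 in N. benthamiana. Tomato was on the opposite side of 0 from all 8 other arrays, and its mean of -0.71 ± 0.23 (SD, n = 2) was 1.73 below petunia. LOC102577908 also had opposite signs, with -0.61 and -0.70 in tomato and a lowest, median and highest array of 0.23, 0.66 and 1.38 in the others. Its tomato mean of -0.65 lay 1.10 below N. benthamiana.

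LOC102582373 had a tomato mean of -0.49 ± 0.12 (SD, n = 2), but its petunia mean was 0.15 while pepper, tobacco and N. benthamiana stood at 1.61, 1.44 and 1.74. The gap to petunia was -0.63, so only petunia lay close to tomato in this gene. LOC102586069 had -0.25 and -0.82 in tomato, and the lowest of the 8 other arrays was -0.31 (N. benthamiana, replicate 1). Tomato thus overlapped the others. With a mean of -0.54 it was 0.68 below pepper, but on the replicate 1 arrays alone it was inside the range of the others (gap 0) and on the replicate 2 arrays 1.07 below them. LOC102601823 had a tomato mean of -0.90 and a gap of -0.63 to pepper, the 1 other species that was negative (-0.26).

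The largest class, 14 genes, had tomato within 0.4 of potato. LOC102599440 had 0.04 and -0.07 in tomato, against 2.87 and 1.79 in pepper, 2.21 and 1.58 in petunia, 2.98 and 2.005 in tobacco, and 3.15 and 2.14 in N. benthamiana. The 2 tomato arrays were at the potato level while the replicate 1 arrays of the 4 others were all above their replicate 2 arrays. The tomato mean of -0.02 ± 0.07 (SD, n = 2) lay 1.91 below petunia, a 3.77-fold difference. In LOC102600252 tomato had 0.44 and -0.03, against 2.06 and 1.39 in pepper, 2.10 and 1.41 in petunia, 1.74 and 1.54 in tobacco, and 1.87 and 1.56 in N. benthamiana. Here the 4 others were close to each other, with means between 1.64 and 1.76, and tomato at 0.21 ± 0.33 (SD, n = 2) was 1.43 below tobacco.

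LOC102577554 differed from these in that the 4 others fell into pairs. Tomato had -0.29 and -0.15, tobacco 2.79 and 2.65, and N. benthamiana 2.40 and 2.60. Pepper had 1.53 and 1.42 and petunia 1.09 and 1.29. The 2 Nicotiana species were therefore highest, and the tomato mean of -0.22 ± 0.09 (SD, n = 2) was 1.41 below petunia. In LOC102592687 a different pair was high, tobacco and petunia, both with a mean of 2.67, against 0.89 in pepper and 0.98 in N. benthamiana. Tomato, at 0.12 ± 0.08 (SD, n = 2), was 0.77 below pepper. LOC102593330 had a tomato mean of 0.26, with pepper nearest at a gap of -0.75 and the other 3 species between 1.91 and 1.998.

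The remaining 9 genes within 0.4 of potato had gaps of 0.60 to 0.89 in size. LOC102589608 had a tomato mean of 0.07 and a gap of -0.89 to pepper, and LOC102605230 one of -0.06 with a gap of -0.87, also to pepper. LOC102605230 had values on 8 arrays only, lacking replicate 1 in pepper and replicate 2 in tobacco, so that neither replicate gave a gap by itself. LOC102594671 rested on a single tomato value, 0.15, with N. benthamiana nearest at -0.83. LOC102577511 had a mean of -0.33 and was 0.79 below petunia, with both tomato arrays negative (-0.46 and -0.19) and all others positive. LOC102601057 had 0.08 and 0.05 in tomato and was 0.75 below petunia. In contrast to its close tomato arrays, LOC102593763 had 0.42 and -0.52, and replicate 2 was lower by 0.77 to 1.13 in each of the other species too.

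LOC102601464 had a tomato mean of 0.26 and a gap of -0.62 to N. benthamiana, which was -0.97 on replicate 1 arrays and -0.28 on replicate 2 arrays. LOC102577891 had 0.10 with a gap of -0.60, and LOC102577503 had -0.39 with a gap of -0.60, both to N. benthamiana. These last genes stand at the limit of the rule.

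In the other 6 genes with tomato below, tomato was positive by 0.4 to 1 and the 4 others were higher still, with means over the 4 of 1.81 to 2.30. LOC102603225 had -0.01 and 0.85 in tomato, against 1.53 and 1.65 in pepper, 1.60 and 1.76 in petunia, 1.95 and 2.13 in tobacco, and 1.85 and 2.03 in N. benthamiana. The 4 other species differed little between replicates, whereas the tomato arrays were 0.86 apart. The tomato mean of 0.42 ± 0.61 (SD, n = 2) was 1.17 below pepper, and the gap was -1.54 on replicate 1 arrays and -0.79 on replicate 2 arrays. LOC102586427, covered by 6 clones, had a tomato mean of 0.61 ± 0.55 (SD, n = 2) and a gap of -0.95 to pepper, with petunia highest at 2.56. LOC102581514 had 0.70 and 0.61 in tomato and was 0.84 below tobacco.

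LOC102604696 had the closest tomato arrays of this class, 0.90 and 0.87, and was 0.72 below N. benthamiana. LOC102601908 had a tomato mean of 0.91 with N. benthamiana nearest at -0.75 and pepper farthest at 3.04. Pepper was also farthest in LOC102589404, at 3.30, where the tomato mean of 0.88 was 0.65 below tobacco. In these 6 genes the tomato mean was on the same side of potato as the other species, and nearer to it. The ratio of tomato itself was not called in LOC102603225 and LOC102586427 (limma without a block, adjusted p = 0.097 and 0.060).

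The 5 genes with tomato above were led by LOC102577429. It had 2.52 and 2.03 in tomato, against -0.56 and -0.47 in pepper, 1.13 and 0.78 in petunia, 0.77 and 0.36 in tobacco, and -0.24 and 0.62 in N. benthamiana. Both tomato arrays were above all others, and the tomato mean of 2.28 ± 0.34 (SD, n = 2) was 1.32 above petunia, a 2.50-fold difference. The 4 others were spread around the potato level, and pepper was the farthest from tomato.

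LOC102577562 had -0.19 and -0.18 in tomato, against -1.28 and -1.40 in pepper, -1.10 and -1.14 in petunia, -1.28 and -1.23 in tobacco, and -1.10 and -1.35 in N. benthamiana. It was the 1 gene of the 5 in which tomato stayed near potato while all 4 others were lower, at means between -1.34 and -1.12. The gap to petunia was 0.93. LOC102606273 had 1.89 and 2.56 in tomato, against -0.90 and -0.23 in pepper, 0.53 and 0.80 in petunia, -0.47 and -0.45 in tobacco, and 1.45 and 1.49 in N. benthamiana. N. benthamiana was thus the nearest species, 0.75 below the tomato mean of 2.22 ± 0.47 (SD, n = 2).

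LOC102577826 had 0.84 and 0.70 in tomato, against -0.47 and -0.61 in pepper, -0.27 and -0.08 in petunia, 0.13 and 0.03 in tobacco, and 0.07 and -0.0005 in N. benthamiana. The gap of the tomato mean of 0.77 ± 0.10 (SD, n = 2) to tobacco was 0.69. LOC102579688 had 1.24 and 1.04 in tomato, against 0.48 and 0.59 in pepper, -0.82 and -0.95 in petunia, -0.37 and -0.31 in tobacco, and 0.09 and -0.37 in N. benthamiana. Its gap of 0.60 to pepper only just met the rule. In 4 of the 5 genes, all but LOC102577562, tomato was farther from potato than every other species.

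**Figure D2:**
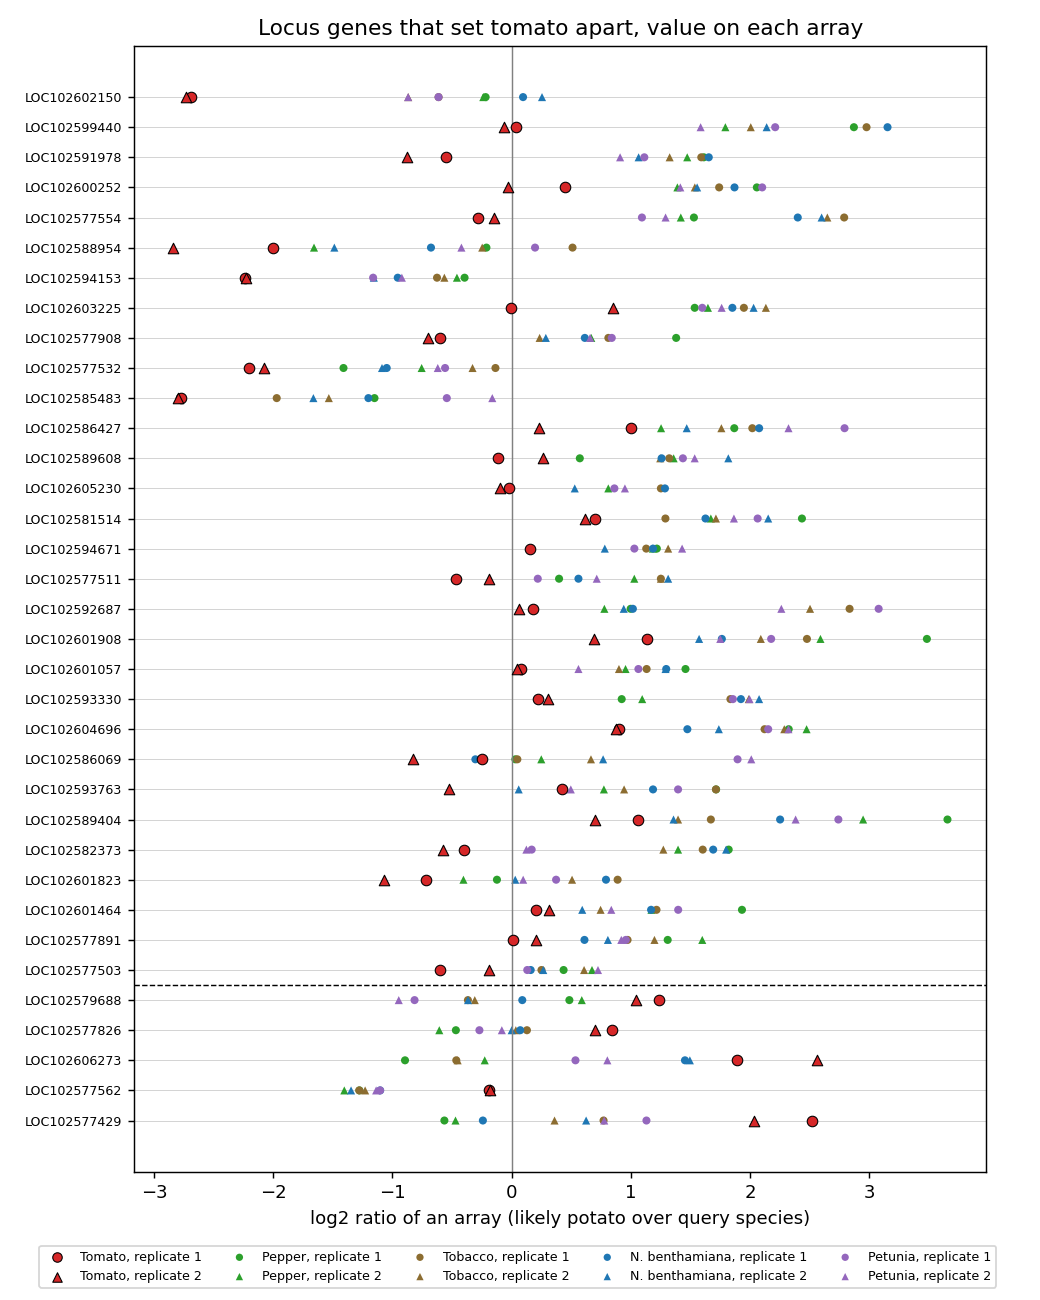
Log2 ratio on each array (horizontal axis, likely potato over query species) for the 35 genes, with tomato as large red symbols, the other species in their own colours, circles for replicate 1 and triangles for replicate 2. The 30 genes above the dashed line have tomato below the others and are ordered by the size of the gap. The 5 genes under it have tomato above the others, ordered from the smallest to the largest gap.

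Genes at the limit show where the rule drew its line. With tomato below, the smallest gaps inside were -0.60 in LOC102577503, -0.60 in LOC102577891 and -0.62 in LOC102601464, and those just outside were -0.58 in LOC102587738, -0.57 in LOC102602834 and -0.57 in LOC102577716. With tomato above, the smallest inside were 0.60 in LOC102579688, 0.69 in LOC102577826 and 0.75 in LOC102606273. Those just outside were 0.56 in LOC102588892, 0.55 in LOC102596994 and 0.54 in LOC102577817. The gaps next to the limit on its inner and outer side, 0.60 and 0.58 with tomato below and 0.60 and 0.56 with tomato above, were closer to each other than the median distance of 0.18 between the 2 tomato arrays of the 35 genes.

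Of the 6 genes left out by level, LOC102602308 had a wider gap than any of the 35. Its tomato mean of -4.06 was 2.81 below pepper at -1.25, with -3.63 and -4.49 on the tomato arrays, and it was left out because all 5 means were below -0.5. In the other species only 28 of its 64 spot values were present. Its only clone valued in all 5 species had a gap of -1.54, to tobacco. LOC102577893 and LOC102590882 had all means above 1, with tomato at 3.35 and 1.37. In LOC102591911, LOC102596966 and LOC102577779 tomato was the highest species, at -1.43, -0.54 and -0.57, with all means below -0.5.

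Both tomato arrays lay beyond all other arrays with a value in 32 of the 35 genes, 27 of the 30 below and all 5 above. The same held for 58 of 318 locus genes with tomato below (18.2%) and for 43 with tomato above (13.5%). Since the rule used these arrays, nothing is read from the difference. The 3 exceptions were LOC102594671, which had 1 tomato value, and LOC102586069 and LOC102593763, in which 1 tomato array fell among the others. The median distance between the 2 arrays of a species over the 35 genes was 0.18 in tomato, 0.29 in pepper, 0.26 in petunia, 0.26 in tobacco, and 0.33 in N. benthamiana. For the locus genes not taken the median distance was 0.23 in tomato and 0.27 to 0.33 in the 4 others. Of the spots of the 35 genes, 91.9% had a value on the tomato arrays and 91.1% on the others, against 88.7% and 89.5% in the locus genes not taken.

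The rule was also applied to the arrays of 1 replicate, and the genes it took were looked at in the other. The rule itself was set with earlier results of these data known, so the counts are a description and no independent support. The shares given beside them are of all locus genes with values, the chosen ones included. With the same rule on the replicate 1 arrays alone, 30 genes had tomato below, and 29 of them had values in replicate 2. There tomato was below all 4 others in 27 and by 0.6 or more in 17, beside 31.5% and 8.12% of the 308 locus genes with replicate 2 values. In the reverse direction, 24 genes chosen on replicate 2 had tomato below all others on replicate 1 in 23 and by 0.6 or more in 18, beside 33.8% and 11.3% of 302 genes. With tomato above, 15 genes were chosen on replicate 1, of which 14 had replicate 2 values. Tomato was above again in 9 and past 0.6 in 3, beside 22.4% and 3.25%. All 7 chosen on replicate 2 were above again on replicate 1, with 3 past 0.6, beside 24.2% and 5.96%. All gaps of a replicate rest on 1 tomato array and 1 potato extract, and the difference between the 2 directions was not tested.

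Among the 35 genes chosen on all arrays, the gap was on the same side in each replicate taken alone in 31 and past 0.6 in each in 21. None changed sides. LOC102586069 had a gap of 0 on replicate 1, and LOC102585483, LOC102605230 and LOC102594671 lacked a gap in at least 1 replicate. All 346 gaps that could be formed with 1 array left out were on the side of the gene, but 17 genes fell under 0.6 for at least 1 array left out. LOC102594671, LOC102585483 and LOC102605230 had no gap when the only valued array of a species was left out. The lowest of these values was -0.11 for LOC102593763 without the replicate 1 array of N. benthamiana, followed by -0.20 for the same gene without the replicate 2 array of tomato.

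**Figure D3:**
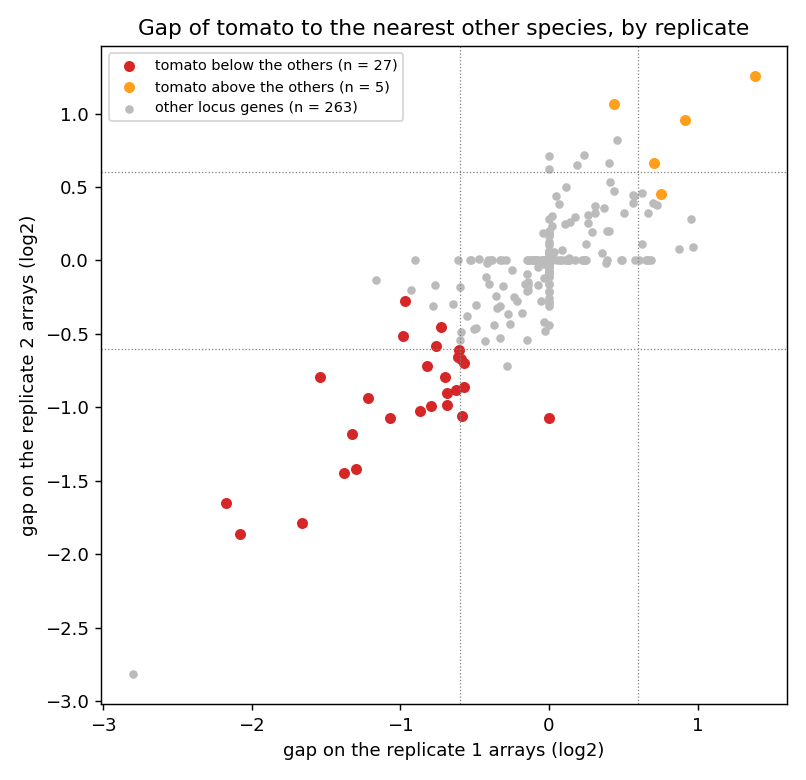
Gap between tomato and the nearest other species on the replicate 1 arrays (horizontal axis) and on the replicate 2 arrays (vertical axis), in log2 units, for the 295 locus genes with a gap in both, with dotted lines at 0.6 and -0.6. A gap of 0 means that tomato lay within the range of the others. The 27 plotted genes with tomato below lie at the lower left apart from LOC102586069, which is at 0 on replicate 1, and the 5 with tomato above lie at the upper right.

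Several genes were represented by more than 1 printed clone, which gives a further view of the same gene symbol. Of the 35 genes, 17 had 1 clone and 18 had several, 68 clones in all. In 17 genes at least 2 clones had a value in every species. Of their 47 clones, 43 had tomato on the side of the gene and 34 were past 0.6 by themselves. All clones were on the side of the gene in 14 genes and past 0.6 in 8. These clones share arrays and RNA, so they are no replicates of the species. The clones of LOC102591978 differed by little, with gaps of -1.74 and -1.72, as did those of LOC102588954 (-1.34 in both) and LOC102577429 (1.28 and 1.36).

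The 3 genes with a clone that disagreed were LOC102577503, LOC102582373 and LOC102586427. In LOC102577503 a single clone carried the difference. Its tomato values were -1.11 and -1.06 and its other species means 1.53 to 1.83, a gap of -2.61. The other 3 clones had gaps of 0.29, 0 and -0.10, and 1 of these lacked values on 2 arrays. LOC102582373 had 2 clones with gaps of -1.31 and -1.18, both with petunia nearest, and another with a gap of 0.09 and all 5 species between -0.81 and -0.27.

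In LOC102586427, 5 of 6 clones had gaps between -1.22 and -1.01 and tomato means between 0.18 and 0.58. The remaining clone had a tomato mean of 2.15, among the other species at 1.88 to 2.58. Whether the clones that stood alone belong to the same transcript was not tested. The 2 spots of 1 clone on 1 array differed by a median of 0.122 over 596 pairs of the 35 genes, and by 0.122 over all locus clones.

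**Figure D4:**
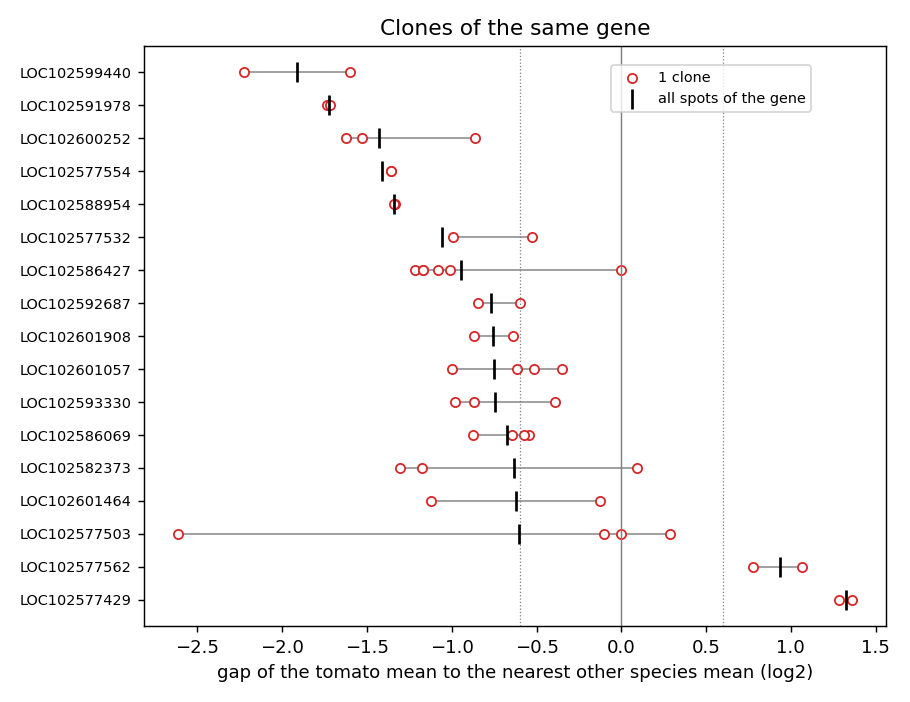
Gap between tomato and the nearest other species (horizontal axis, log2) for each clone of the 17 genes with at least 2 clones valued in every species, as circles, and for the average of all spots of the gene, as a black bar. Dotted lines mark -0.6 and 0.6. The clones of LOC102577503 reach from -2.61 to 0.29, while those of LOC102591978 and LOC102588954 nearly coincide.

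The same rule applied to each query species in turn took 35 genes for tomato, 27 for pepper, 3 for tobacco, 2 for N. benthamiana and 12 for petunia. Tomato below the others (30 genes) was the largest of these groups, followed by pepper below the others (19 genes). Petunia was more often above (8) than below (4). Tobacco and N. benthamiana, the 2 species of 1 genus, were rarely apart from all the others, 1 below and 2 above for tobacco and 1 on each side for N. benthamiana. The species means are shared by all of these choices, so the counts are not independent. The species nearest to tomato in the 30 genes with tomato below was N. benthamiana in 10, pepper in 9, petunia in 7 and tobacco in 4. In the 5 with tomato above it was petunia in 2 and each of the other species in 1.

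**Figure D5:**
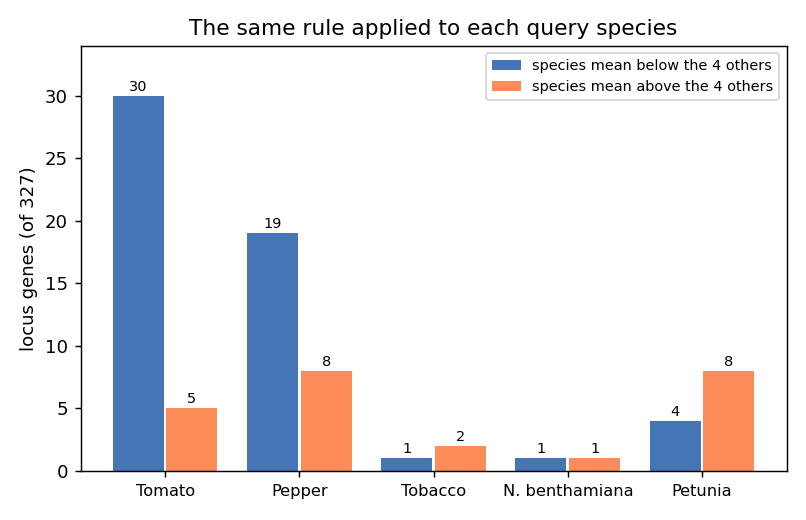
Number of the 327 locus genes (vertical axis) in which a query species (horizontal axis) met the rule, with its mean below (blue) or above (orange) the 4 others. Tomato has 30 below and 5 above, pepper 19 and 8, tobacco 1 and 2, N. benthamiana 1 and 1, and petunia 4 and 8.

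The ratio to potato was tested in each species (limma, Benjamini-Hochberg adjusted p under 0.05 over all features tested). Of the 30 genes with tomato below, 29 were tested in tomato, and its ratio was called positive in 4 and negative in 9, beside 25.9% and 25.2% of all features. Pepper was positive in 22 and negative in 2 of 28 (26.7% and 29.1% of all features). Tobacco was positive in 21 and negative in 3 of 29 (28% and 30%). N. benthamiana was positive in 20 and negative in 4 of 30 (28.7% and 31.7%), and petunia in 20 and 3 of 30 (28.3% and 30.4%). Of the 5 genes with tomato above, tomato was called positive in 4, all but LOC102577562, whose adjusted p in limma was 0.27. With the replicate as a random block, the 30 genes gained 7 calls and lost none. The positive and negative calls were then 5 and 9 in tomato (26.7% and 25.7% of all features), 22 and 3 in pepper (27.6% and 29.8%), 23 and 3 in tobacco (29% and 30.9%), 21 and 4 in N. benthamiana (29.6% and 32.2%), and 22 and 3 in petunia (29% and 30.9%). The added calls, with adjusted p in limma, were LOC102586427 in tomato (0.022), LOC102588954 in pepper (0.011), LOC102577908 (0.033) and LOC102577503 (0.048) in tobacco, LOC102593763 in N. benthamiana (0.048), and LOC102593763 (0.0071) and LOC102577503 (0.049) in petunia. Calls among the 5 genes with tomato above were the same in number. The random block used a single correlation between arrays of a replicate for all features, and each ratio still rested on 2 potato extracts. Some added calls had replicates far apart, as LOC102593763 in N. benthamiana (1.185 and 0.0585) and LOC102588954 in pepper (-0.21 and -1.66).

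The rule used these means, so the counts describe the selected genes and are not read against the background. For the contrast of tomato with the mean of the 4 others, which the rule also used, 28 of 29 tested genes with tomato below and 5 of 5 with tomato above were called, beside 12.5% and 14.2% of all features. LOC102593763 was the exception. With the replicate number as a block all 34 were called, beside 18.6% of features with tomato lower and 24.2% with tomato higher.

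Whether pepper, tobacco, N. benthamiana and petunia differed among themselves is a comparison the rule did not make, although a gap taken to the nearest of the 4 favours genes in which these lie close. The limma F test of the 4 species was run over the 7561 features with a value on all arrays and called 19.5% of them, 71 of 295 locus genes and 10 of the 32 testable genes described here. With the replicate number as a block the F test called 47.9% of features, 165 of the 295 locus genes and 21 of the 32. The share among the selected genes was not set against that of the others by a test.

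The smallest adjusted p of this F test was 0.0026 in LOC102577554 (limma, 7561 features), in which tobacco (2.72) and N. benthamiana (2.50) were above pepper (1.47) and petunia (1.19). It was 0.0034 in LOC102592687, in which tobacco and petunia were the high pair. Petunia stood alone in LOC102582373 (adjusted p = 0.0046), where it was low, and in LOC102586069 (adjusted p = 0.020), where its mean of 1.95 was above 0.14 in pepper, 0.23 in N. benthamiana and 0.36 in tobacco. Pepper was the low species in LOC102593330 (adjusted p = 0.014) and the high one in LOC102589404 (adjusted p = 0.022). LOC102602150 was called as well (adjusted p = 0.022), with N. benthamiana at 0.17, pepper at -0.23 and tobacco and petunia both at -0.74.

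Among the 5 genes with tomato above, the F test in limma called LOC102606273 (adjusted p = 0.0046), LOC102579688 (adjusted p = 0.010) and LOC102577429 (adjusted p = 0.039). Pepper was lowest in LOC102606273 and in LOC102577429 and highest of the 4 in LOC102579688. At the other end, the 4 species were closest in LOC102600252 (adjusted p = 0.99), where their means were within 0.12 of each other. A p of this size does not show that they were equal. The 11 genes called only with the block were LOC102588954, LOC102594153, LOC102577532, LOC102586427, LOC102577511, LOC102601908, LOC102604696, LOC102593763, LOC102601823, LOC102577891 and LOC102577826, with adjusted p between 0.0014 and 0.037 in the blocked limma fit. The pattern of the other 4 species thus varied from gene to gene.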

How the data were processed

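Log2 ratios of 10 two-channel potato cDNA arrays were used, 2 per query species, with potato leaf RNA as the common second sample. The authors extracted signals with GenePix 5.0 and discarded spots missing in 1 channel, spots with more than 30% saturated pixels and spots smaller than 70 µm. Local background was subtracted and quantile normalization done in limma (its version is not given in the sources used). As deposited, the log2 ratios, 1 per spot, equal the negative log2 of ratios held to 2 decimals, so high positive values are coarse. Intensities of single channels were not analysed here, so levels of a gene within a species, and saturation after filtering, could not be seen.

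Clones were printed as 2 spots each. The layout used here gave 15360 clone positions and accounted for 905 of 905 pairs in the table of probe genes. Of 905 clones with a symbol, 815 had a single one, and clones with several were not used. No column was left unmapped. The members and the lists were chosen with earlier results of these data known. Every gene taken is named, the 8 with the widest gap in each direction (all 5 above) with the value on every array, and the 3 nearest to the limit on each side.

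Features were single symbols, averaged over their spots, and other clones. Fits used limma 3.58.1 in R 4.3.3 (lmFit, 1 coefficient per query species, eBayes, Benjamini-Hochberg over all features tested, 0.05). The tomato contrast and the F test, without and with the replicate number as a block, were tried on simulated data with known changes. The simulated arrays varied independently of each other, unlike the real ones. Fits against potato and with a random block were not simulated. A species was tested over features valued on both arrays of that species, and the F test over features with a value on all 10. Counts and plots used Python 3.11.15, pandas 2.3.3, numpy 2.4.6 and matplotlib 3.10.9. The deviations from the species mean of arrays with the same number correlated at 0.29 to 0.68 over the 10 pairs of species and 7561 features (0.29 to 0.40 with tomato), and the labels give each replicate its own potato extract, so the replicate numbers pair the arrays. Alternatives covered the gap, the weighting of clones, missing values, centring and scaling of arrays, the replicate block, the threshold and leaving out each array. Restriction to clones with a value on all 10 arrays was added after seeing the data. The lists set by key words of gene descriptions, and a check of leaf against tuber markers, were not run, since the tables used here hold no descriptions. Precision is limited by the 2 arrays per species.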

Additional observations from a re-analysis of the deposited data

Results flagged for a closer look

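In 7 genes tomato was negative on both arrays while every other array with a value was positive. The genes were chosen on these differences, so the limma calls of tomato against the 4 others give no independent support for them. The tomato mean minus the mean of the 4 other species was -2.06 in LOC102591978, -2.19 in LOC102577554, -1.34 in LOC102577908 and -1.03 in LOC102605230. It was -1.17 in LOC102577511, -1.72 in LOC102582373 and -0.80 in LOC102577503. For LOC102582373 and LOC102577503 the clones of the gene disagreed. In LOC102605230 the replicate 1 tomato value was negative only through a clone with values on 2 arrays. Its other clone had 0.2 and -0.098 on the tomato arrays. A clone of LOC102577554 had 0.028 on the replicate 2 tomato array, its only tomato value. The side of 0 rests on the authors' normalization, which set array medians close to 0.

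In 10 genes the 4 other species differed among themselves by the limma F test. The adjusted p was 0.0217 in LOC102602150, 0.00256 in LOC102577554, 0.00343 in LOC102592687, 0.0145 in LOC102593330 and 0.0204 in LOC102586069. It was 0.0215 in LOC102589404, 0.00464 in LOC102582373, 0.010 in LOC102579688, 0.00465 in LOC102606273 and 0.0392 in LOC102577429. All 10 were also called with the replicate block. No group had the 4 arrays that a search for single outlying arrays needs.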

How the results depend on the processing

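With a gap of 0.4 the rule took 19 genes with tomato above and 43 below, and with a gap of 0.8 it took 2 and 16. Replicate 1 arrays alone gave 15 above and 30 below, and replicate 2 arrays alone 7 and 24. Leaving out 1 array at a time gave 4 to 12 genes above, 12 without the replicate 2 tomato array, and 25 to 35 below. Equal weights for clones, centred or scaled arrays, complete values and the restriction to clones valued on all 10 arrays gave 4 to 6 above and 27 to 32 below. Of 597 recomputed gaps of single genes, 2 turned their sign, 0.29 for LOC102577503 from 1 of its 4 clones and 0.0922 for LOC102582373 from 1 of its 3.

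The counts over all features moved with the pairing, the threshold and single arrays. For tomato minus the mean of the 4 others, 2440 of 9147 features were called without and 3916 with the replicate block, 3777 with a random replicate block and 925 at an adjusted p under 0.01. Leaving out an array gave 404 to 2713, with 404 without the replicate 1 tomato array and 540 without the replicate 2 one. The F test among the 4 others called 1477 features, 3622 with the replicate block, 3347 with a random replicate block, 441 at an adjusted p under 0.01 and 656 to 1556 with an array left out (656 and 746 without a pepper array, 913 and 928 without a petunia array, 922 and 948 without a tobacco array). Against potato, leaving out an array of the species gave 2351 to 2714 calls in tomato (4913 in all), 3021 to 3688 in pepper (4864), 3283 to 3886 in tobacco (5274), 3757 to 4871 in N. benthamiana (5355) and 3402 to 3993 in petunia (5266). A species left with 1 array is assumed to vary like the others. A fit against potato with a fixed block was not made, since it removes the spread between potato extracts. The cause of these shifts was not tested. With 2 arrays per species, genes close to a gap of 0.6 cannot be placed firmly on either side of it.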

Other observations

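The same rule over the 83 genes with another symbol took 9 for tomato, 5 below and 4 above. MIP2 had a tomato mean of 0.51, against 2.09 in pepper, 4.27 in petunia, 3.45 in tobacco, and 4.08 in N. benthamiana. PPO, the usual symbol of polyphenol oxidase, an enzyme of wound browning, had -2.12 in tomato, with tobacco nearest at -0.68. CYCD3.3, by its symbol a D-type cyclin, had -1.86 in tomato and -0.59 in pepper, the nearest species. SI1 and TS were the other genes with tomato below, with gaps of -1.13 and -0.83. RSI5, CO, AOX and POTLX-3 had tomato above, by 1.15, 1.01, 0.75 and 0.62 over the nearest species. No explanation was tested.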
